A study of Mus musculus with 3 samples.

Results

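Transcripts of 9 genes of the Hedgehog pathway were followed through single cells of mouse embryonic kidneys: the ligands Shh and Ihh, the receptor Ptch1, the signal transducer Smo, the transcription factors Gli1, Gli2 and Gli3, the decoy receptor Hhip and the co-receptor Boc. They were taken by symbol, not by a cutoff on a measured value, and make up 9 of the 32285 genes counted. Earlier results of these data were known when they were chosen. Whole kidneys were collected at E15.5 (embryonic days) and sequenced with the 10x Genomics 3′ assay, which counts unique molecular identifiers (UMIs) near the 3′ ends of transcripts. All embryos carried Wt1 GFPCre/+, a knock-in that drives Cre from the Wt1 promoter in the nephron and stromal lineages and removes 1 copy of Wt1. Enl-WT embryos (Enl +/+ Wt1 GFPCre/+) received no treatment. Enl-T1 embryos (Enl flox-T1/+ Wt1 GFPCre/+) also received none, and carried after recombination 1 allele of Enl (Mllt1, a chromatin reader) with the T1 insertion found in Wilms tumor. Enl-T1 TDI-11055 embryos had the Enl-T1 genotype, and their mothers were given TDI-11055, a small molecule that blocks the acyl-binding YEATS domain of ENL, by mouth at 100 mg/kg each day from E10.5 to E14.5. Each group was 1 library of pooled kidneys with no map from cells to embryos, so the group cannot be told apart from its library, embryos or preparation, and no test between groups was possible.

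Hedgehog ligands are secreted proteins. In the absence of ligand PTCH1 holds SMO inactive at the primary cilium, and GLI3 is cut into a repressor. Ligand binding frees SMO, and the GLI factors then activate transcription, with Gli1, Ptch1 and Hhip among the best known target genes in many tissues. HHIP binds ligand at the cell surface and limits its reach, whereas BOC presents ligand to PTCH1. In the developing urinary tract Shh is made by the ureter and collecting ducts and acts on the neighbouring mesenchyme, and loss of the balance between activating and repressing GLI disturbs the growth of both.

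All members are protein-coding genes, placed here on the GRCm38 build (GENCODE M21). Shh is at chr5:28456815-28467256 (minus strand), Ptch1 at chr13:63508328-63573598 (minus), Gli1 at chr10:127329882-127341974 (minus) and Hhip at chr8:79965851-80058006 (minus). Ihh is at chr1:74945315-74951672 (minus), Gli2 at chr1:118834132-119053619 (minus), Gli3 at chr13:15463235-15730026 (plus), Smo at chr6:29735503-29761365 (plus) and Boc at chr16:44485049-44558897 (minus). RefSeq promoter entries were at hand for 6 of the 9 members, namely Ihh, Smo, Ptch1, Gli2, Gli3 and Hhip. The 250 bases before the start of Ptch1 and Hhip are shown because both are target genes described in what follows. Capitals mark the letters CCACCC or GGGTGG, the core of the sequence that GLI factors bind.
Ptch1 (chr13:63565736-63565985, minus strand): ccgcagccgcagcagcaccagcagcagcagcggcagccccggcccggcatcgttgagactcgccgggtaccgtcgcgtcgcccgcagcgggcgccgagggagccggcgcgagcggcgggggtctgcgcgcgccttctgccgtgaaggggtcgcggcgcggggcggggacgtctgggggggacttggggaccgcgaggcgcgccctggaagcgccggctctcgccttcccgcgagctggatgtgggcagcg
Hhip (chr8:80058009-80058258, minus strand): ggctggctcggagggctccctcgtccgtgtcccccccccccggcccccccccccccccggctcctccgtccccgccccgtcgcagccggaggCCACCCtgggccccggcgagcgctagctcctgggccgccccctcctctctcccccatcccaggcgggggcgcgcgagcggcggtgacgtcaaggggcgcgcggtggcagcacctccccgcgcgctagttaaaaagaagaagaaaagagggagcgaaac
The Hhip window held 1 core match and 76.0% G or C, and the Ptch1 window held no core match and 78.4% G or C. The Ptch1 window lies in an intron of longer Ptch1 transcripts. Both strands were searched. The core stood in 9223 of 32851 promoters of this length (28.1%) and in 5 of the 6 members with an entry, all but Ptch1. The full consensus GACCACCCA, of which the core is a part, stood in 74 promoters (0.225%) and in none of the 6. A match describes the letters of a window and does not show a binding site, and no match says only that these letters are not in this window.

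After the filter of 1000 to 6000 detected genes and at most 10% mitochondrial UMIs, 5233 cells of Enl-WT, 4144 of Enl-T1 and 2754 of the treated library remained, with a median of 5090, 9391 and 16932 UMIs per cell and between 32029895 and 44211633 UMIs per library. Cells were assigned to the nephron (2216, 1304 and 1341 cells), the stroma (871, 1393 and 271), the ureteric epithelium (1742, 1172 and 1021) and the endothelium (395, 257 and 116), always in the order Enl-WT, Enl-T1, then the library exposed to TDI-11055. Of the cells of each lineage, 98.1% of the ureteric epithelium, 95.9% of the stroma and 97.5% of the endothelium had the marker list of that lineage as their leading list, but only 31.5% of the nephron did. Between 10 and 14 barcodes were shared by any 2 libraries. By Xist counts without any from the Y chromosome, 26.5%, 73.3% and 35.1% of the cells were read as female. Levels are given as CPM, the UMIs of a gene scaled to a fixed total over the cells summed, with exact 95% Poisson intervals that cover counting error only. A ratio between libraries is given relative to the median gene, since the median gene with at least 5 CPM was lower in Enl-T1 compared with Enl-WT by 0.41 on the log2 scale in the nephron and by 0.30 in the stroma and the ureteric epithelium. A member was called higher or lower when its relative ratio was past 1.5-fold. The comparisons of Enl-T1 with Enl-WT and of Enl-T1 TDI-11055 with Enl-T1 share the Enl-T1 library. Counts near the 3′ end are not comparable between genes, so levels are compared within a gene only.

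Shh transcripts were almost confined to the ureteric epithelium in each library. It held 188 of 196 Shh UMIs in Enl-WT (95.9%, exact interval 92.1 to 98.2%), 356 of 374 in Enl-T1 (95.2%, 92.5 to 97.1%) and 272 of 278 in Enl-T1 TDI-11055 (97.8%). The stroma held 0, 7 and 0 Shh UMIs, the endothelium 3, 2 and 0, and the nephron 5, 9 and 6. The ligand was therefore read in the lineage that Wt1-driven Cre does not mark, and the other lineages stayed at or under 1.04 CPM. The 11 markers of the ureteric epithelium summed to 269.8, 242.3 and 120.0 CPM in the stroma, against 5462.1, 6856.0 and 5308.2 in the epithelium itself.

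**Figure D1:**
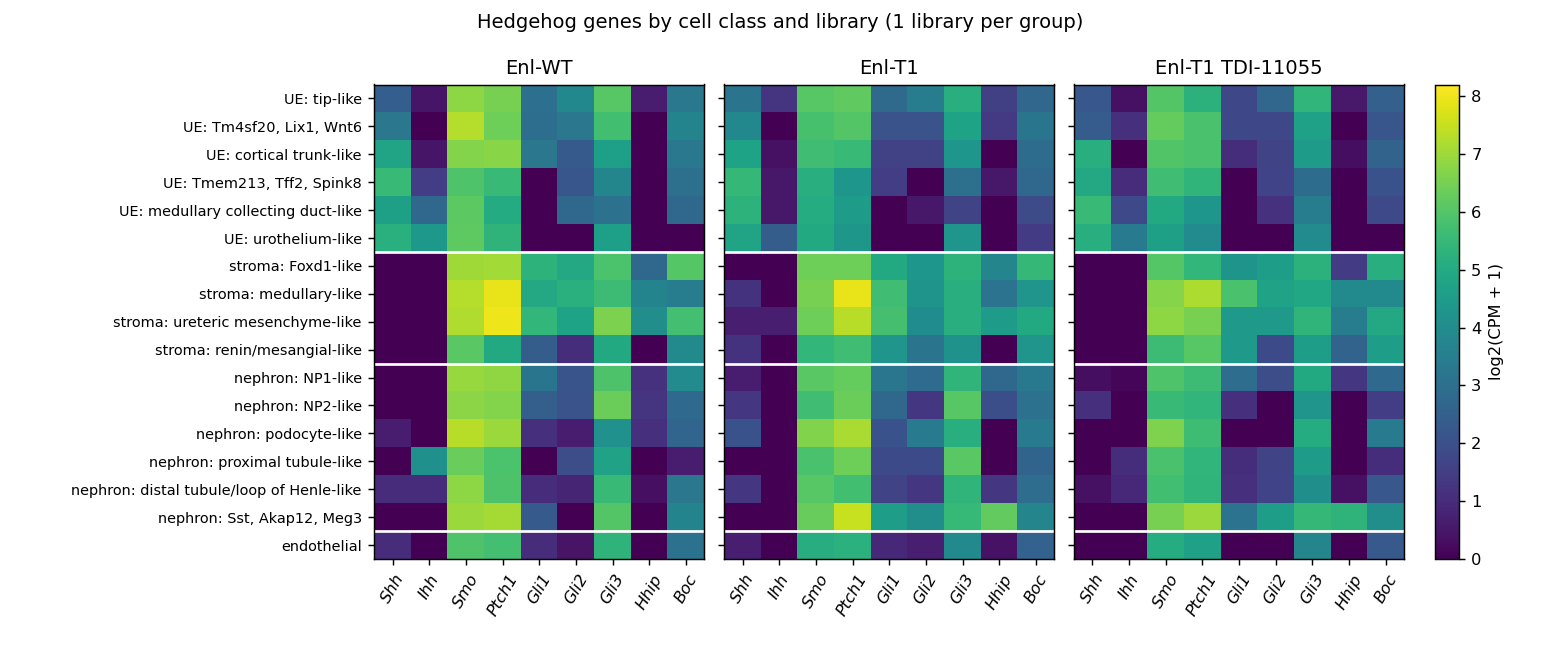
Levels of the 9 members (log2 of CPM plus 1) in the classes of the ureteric epithelium (UE), the stroma and the nephron and in the endothelium, with cell classes as rows, genes as columns and 1 panel per library. Shh is seen in the ureteric epithelium, and among the stromal classes Ptch1 is highest in the medullary-like and ureteric mesenchyme-like cells.

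Within the ureteric epithelium Shh was lower in tip-like than in cortical trunk-like cells in every library. Tip-like cells, named after the branching ends of the ureteric tree, had 4.48 (2.84 to 6.72), 7.90 (5.67 to 10.7) and 3.67 (2.61 to 5.02) CPM. Cortical trunk-like cells, the stalk behind the tips, had 26.8 (20.97 to 33.6), 26.3 (21.1 to 32.4) and 34.0 (28.8 to 39.8). The intervals of tip and trunk did not overlap in any of the 3 libraries. Medullary collecting duct-like cells had 24.3 (12.9 to 41.6), 38.7 (31.0 to 47.7) and 45.6 (31.9 to 63.1), and urothelium-like cells, the lining of the ureter and pelvis, had 35.8, 26.4 and 34.1. An unnamed cluster led by Tmem213, Tff2 and Spink8 had 46.5, 42.8 and 29.9, and an unnamed cluster led by Tm4sf20, Lix1 and Wnt6 had 8.56, 13.1 and 4.21. Trunk, medullary duct, urothelium and the Tmem213 cluster had overlapping intervals within Enl-WT, and no order among them is read. The tip-like class joined clusters with and without tip markers among their 10 leading genes. Clusters of 585, 368 and 234 tip-like cells had none there and were led by replication or mitosis genes. A cluster of 195 cells was led by Wnt11 and Etv5. The part of cell division in the Shh difference between tip-like and trunk-like cells was not tested.

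**Figure D2:**
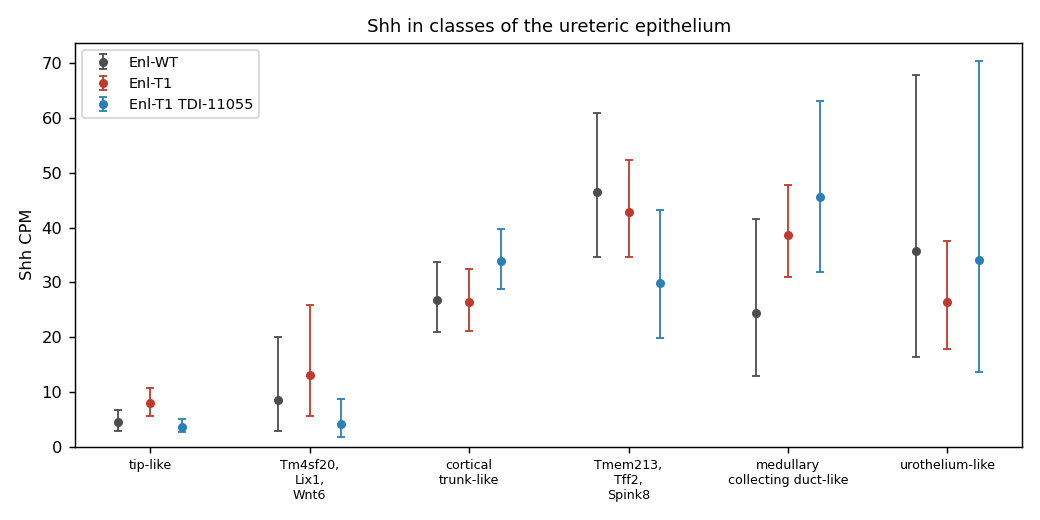
Shh level (CPM, with exact 95% Poisson intervals) in 6 classes of the ureteric epithelium, with 1 point per library. Tip-like cells sit at 3.67 to 7.90 and cortical trunk-like cells at 26.3 to 34.0 in the 3 libraries.

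Over the whole ureteric epithelium Shh was at 16.8 (14.49 to 19.4) CPM in Enl-WT, 23.0 (20.7 to 25.6) in Enl-T1 and 14.3 (12.7 to 16.1) in Enl-T1 TDI-11055. The Enl-T1 interval lay above the other two. Relative to the median gene the ratio of Enl-T1 to Enl-WT was 1.69 (1.41 to 2.03), past the call, and that of Enl-T1 TDI-11055 to Enl-T1 was 0.616 (0.524 to 0.724), also past it. The makeup of the epithelium differed between the libraries in the direction of the Shh difference between classes. Tip-like cells were 47.0%, 32.2% and 52.1% of it, medullary collecting duct-like cells 5.57%, 14.1% and 4.31%, and urothelium-like cells 2.41%, 6.48% and 1.08%. With every cluster weighted equally the log2 ratio of Enl-T1 to Enl-WT was 0.40 against 0.76, and that of Enl-T1 TDI-11055 to Enl-T1 was -0.08 against -0.70, neither past the call. The values within a class differed from the whole. In cortical trunk-like cells the relative ratios were 1.19 (0.866 to 1.65) and 1.25 (0.960 to 1.65), in medullary collecting duct-like cells 1.97 (1.09 to 3.84) and 1.08 (0.712 to 1.61), and in tip-like cells 2.13 (1.25 to 3.73) and 0.471 (0.296 to 0.749). The tip-like cells were thus called higher in Enl-T1 and lower after TDI-11055, on 23, 41 and 39 UMIs. The cluster led by Tm4sf20, Lix1 and Wnt6 had the same pair of calls on 5, 8 and 7 UMIs, with relative ratios of 1.90 (0.548 to 7.38) and 0.3125 (0.0965 to 0.986). The clusters led by Opcml and by Aqp2 that made up the trunk-like class held 242 and 169 cells in Enl-WT, 129 and 141 in Enl-T1 and 147 and 122 in Enl-T1 TDI-11055.

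The share of epithelial cells with a Shh UMI was 9.36%, 22.4% and 18.8%, at median depths of 5230, 11702 and 19318 UMIs. After thinning each cell to 2000 UMIs the shares were 2.68% (1.97 to 3.56%), 3.86% (2.83 to 5.13%) and 2.48% (1.61 to 3.63%), with 28, 5 and 11 shallower cells left out. The thinned difference of Enl-T1 and Enl-WT, 1.17 percentage points with an interval from -0.182 to 2.63, was not resolved at this depth. Endothelial cells, which stand for background, had 0 of 385, 0 of 257 and 0 of 116.

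Ihh, the ligand best known from cartilage and gut, was sparse, with 47, 18 and 15 UMIs per library. In Enl-WT, 29 of them were in proximal tubule-like cells, at 16.3 (10.9 to 23.4) CPM. The same class had 0 UMIs in the 32 cells of Enl-T1, where the upper limit was 9.57 CPM, and 1 UMI in the 76 cells of Enl-T1 TDI-11055, at 1.12 (0.0283 to 6.23). Enl-WT thus lay above the other 2 libraries in proximal tubule-like cells, which numbered 277 in it. Urothelium-like cells held 5, 5 and 2 Ihh UMIs, at 19.9 (6.45 to 46.4), 4.39 (1.43 to 10.3) and 9.75 (1.18 to 35.2), with overlapping intervals. Ihh did not pass the filter of 5 CPM on average in any lineage.

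Ptch1, the receptor, was read in every lineage, and within the stroma it was highest in 2 classes. Medullary-like stroma, the cells between the collecting ducts, had 243.3 (201.9 to 290.7) CPM in Enl-WT, 240.5 (221.0 to 261.3) in Enl-T1 and 144.4 (107.5 to 189.9) in Enl-T1 TDI-11055. Ureteric mesenchyme-like cells, the sheath of the ureter, had 251.8, 159.2 and 89.9, the last on 9 UMIs of 11 cells. Foxd1-like stroma, named after the progenitors at the kidney's edge, had 131.9 (116.6 to 148.6), 83.7 (75.7 to 92.3) and 42.1 (34.1 to 51.3), and the 3 intervals did not overlap. This class joined clusters with and without its markers among their 10 leading genes. Clusters of 409 and 228 cells had none there and were led by replication or mitosis genes. Foxd1 itself was at 450.6, 304.4 and 383.6 CPM in the class. Renin/mesangial-like cells had 30.3, 50.3 and 66.6, the lowest of the stromal classes in Enl-WT. The classes nearest to the Shh-bearing ducts and ureter by name therefore had more Ptch1 than the cortical ones in Enl-WT and Enl-T1.

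Gli1, whose transcription is widely used as a readout of Hedgehog activity, had 29.3 (24.3 to 35.1), 37.6 (34.0 to 41.4) and 21.8 (17.2 to 27.3) CPM in the stroma, from 120, 415 and 76 UMIs. The medullary-like class had 30.2 (16.9 to 49.7), 50.7 (41.9 to 60.7) and 56.6 (34.6 to 87.5), the ureteric mesenchyme-like class 42.0, 54.5 and 19.99, and the Foxd1-like class 38.2 (30.2 to 47.7), 30.8 (26.0 to 36.1) and 17.8 (12.8 to 24.1). In the endothelium Gli1 was at 3, 3 and 0 UMIs. Medullary collecting duct-like and urothelium-like cells, which carried Shh, had 0 Gli1 UMIs in all 3 libraries, which allows up to 6.90, 1.64 and 4.67 CPM in the first and up to 14.7, 3.24 and 18.0 in the second. Cortical trunk-like cells, which also carried Shh, had Gli1 at 8.43 (5.34 to 12.65), 2.07 (0.832 to 4.27) and 1.11 (0.360 to 2.59) on 23, 7 and 5 UMIs. Tip-like cells had 7.01, 6.17 and 2.45, and a cluster of the epithelium led by the mesenchymal genes Vcan, Meis2 and Tpm2 had 18.1, 7.98 and 4.48. The 10 markers of the stroma summed to 97.2, 119.0 and 23.0 CPM in the epithelium, with none at 0, against 5016.9, 6115.8 and 3416.5 in the stroma, and the part of such RNA in the epithelial Gli1 counts was not tested.

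Stromal cells with a Ptch1 UMI had a Gli1 UMI a little more often than those without. After thinning these shares were 8.79% (16 of 182 cells, 5.11 to 13.9%) and 5.40% (36 of 667, 3.81 to 7.39%) in Enl-WT, and 11.2% (32 of 285, 7.81 to 15.48%) and 7.33% (81 of 1105, 5.86 to 9.03%) in Enl-T1. The intervals overlapped in each. In Enl-T1 TDI-11055 only 23 thinned cells had a Ptch1 UMI, of which 1 had Gli1, against 12 of 247 without.

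In the stroma 7 members passed the filter, all but the 2 ligands, and 2 of them were called in the comparison of Enl-T1 with Enl-WT, both higher (Gli1 and Hhip). The same call took 26.8% of all 10434 genes tested, 14.3% higher and 12.6% lower, so 2 of 7 is near the background. The median log2 ratio of the members was 0.00. Gli1 had a relative ratio of 1.58 (1.28 to 1.95). Hhip, with 29 UMIs in Enl-WT (interval 4.75 to 10.2 CPM) and 116 in Enl-T1 (8.68 to 12.6 CPM), had 1.82 (1.20 to 2.84). Neither stayed past 1.5-fold on uncentred values (0.36 and 0.57 on the log2 scale) or with clusters weighted equally (0.35 and 0.39). Ptch1, at 125.9 (115.3 to 137.3) and 129.1 (122.5 to 136.0), had a relative ratio of 1.26 (1.14 to 1.40), and its log2 value was -0.01 with clusters weighted equally. Smo was at 120.8 and 79.5, Gli2 at 21.8 and 17.7, Gli3 at 52.3 and 34.7 and Boc at 44.3 and 32.0, with relative ratios of 0.810, 1.00, 0.815 and 0.891, none past the call.

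Set against Enl-T1, the Enl-T1 TDI-11055 stroma had lower values of 3 of the 7 members that passed the filter, Ptch1, Gli1 and Hhip, and higher values past the call of none. Lower calls took 13.2% of all genes tested here, and calls in either direction 23.4%. Ptch1 was at 58.9 (51.1 to 67.5) CPM, a relative ratio of 0.449 (0.386 to 0.520) to Enl-T1. Gli1, at 21.8 (17.2 to 27.3), had 0.572 (0.442 to 0.732), and Hhip, at 3.73 (1.99 to 6.38) on 13 UMIs, had 0.350 (0.181 to 0.623). All 3 stayed past 1.5-fold in the 11 alternatives of processing, whereas at 2-fold only Ptch1 and Hhip were called. The other pathway components were closer to the median gene, with Smo at 67.5 (relative ratio 0.836), Gli2 at 19.8 (1.10), Gli3 at 33.0 (0.938) and Boc at 30.4 (0.936). Only 271 stromal cells remained in this library, and the 10 stroma markers summed to 3416.5 CPM in them against 6115.8 in Enl-T1, a shift whose part in the result was not tested. Foxd1-like cells were 47.1%, 36.3% and 69.0% of the stroma in the 3 libraries, medullary-like cells 15.96%, 25.4% and 10.3%, and ureteric mesenchyme-like cells 5.28%, 16.4% and 4.06%. With clusters weighted equally the sum of the 3 targets had a log2 ratio of -0.76 against -1.09.

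**Figure D3:**
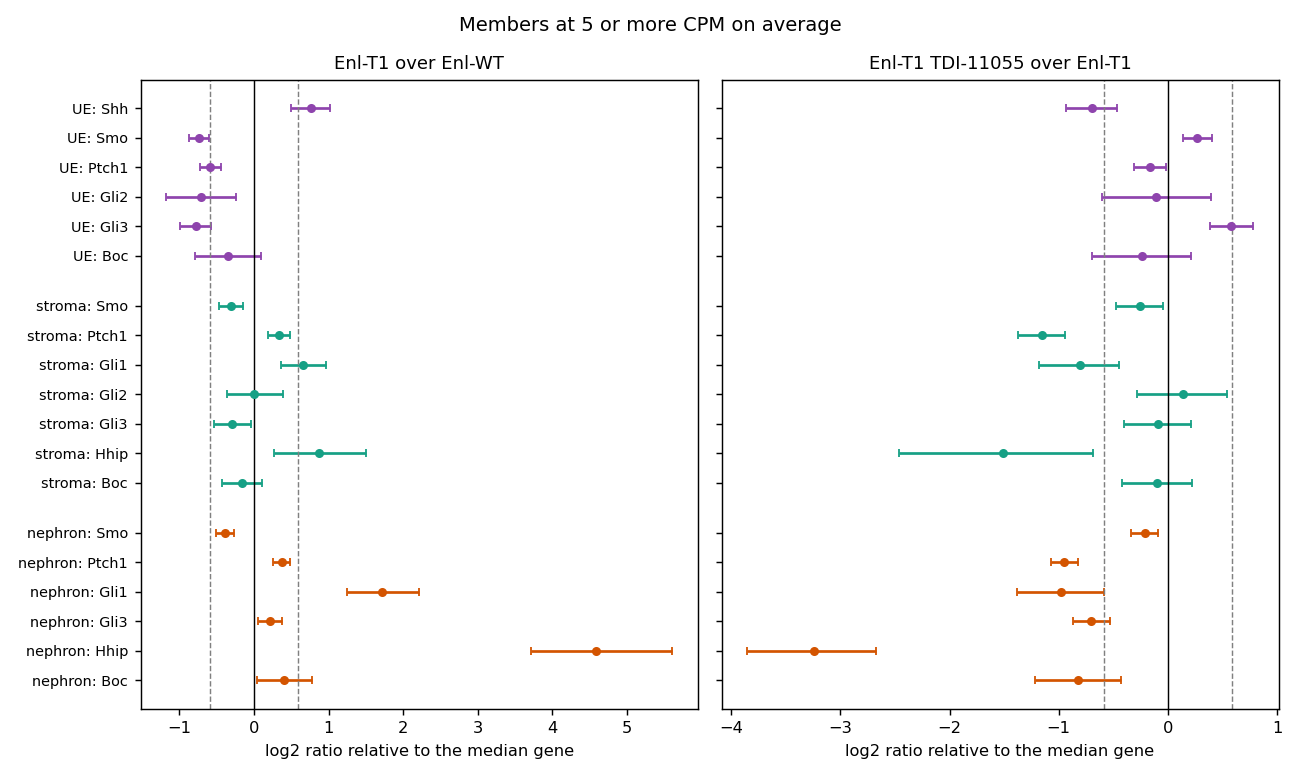
Log2 ratio relative to the median gene, with counting intervals, for members with at least 5 CPM on average in the ureteric epithelium (UE), the stroma and the nephron. The left panel sets Enl-T1 over Enl-WT, the right panel Enl-T1 TDI-11055 over Enl-T1, and the dashed lines mark 1.5-fold. In the stroma on the right, Ptch1 (-1.15), Gli1 (-0.81) and Hhip (-1.51) lie past the line and Smo, Gli2, Gli3 and Boc do not.

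Within classes of the stroma the targets did not move as a block. In Foxd1-like cells Ptch1 had a relative ratio of 0.758 (0.648 to 0.888) for Enl-T1 over Enl-WT and of 0.512 (0.406 to 0.641) with TDI-11055 over Enl-T1 alone. Gli1 had 0.962 (0.726 to 1.28) and 0.588 (0.406 to 0.836) there. Hhip had 5.88 (3.04 to 10.3), 12.2 (9.28 to 15.7) and 1.74 (0.473 to 4.44) CPM in the same cells, relative ratios of 2.48 (1.32 to 5.06) and 0.145 (0.0382 to 0.391). Of the 3 targets Hhip was the one called higher in the Enl-T1 Foxd1-like cells, where the intervals of Ptch1 and Gli1 in Enl-T1 did not exceed those in Enl-WT. In medullary-like cells Gli1 had 2.12 (1.23 to 3.91) and then 1.04 (0.613 to 1.68), while Ptch1 had 1.25 (1.02 to 1.53) and then 0.559 (0.411 to 0.745), and the Enl-T1 TDI-11055 value rests on 28 cells. Of these, 12 were in the cluster led by Lrriq1 and 16 in that led by Gap43, against 86 and 53 in Enl-WT and 216 and 138 in Enl-T1.

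**Figure D4:**
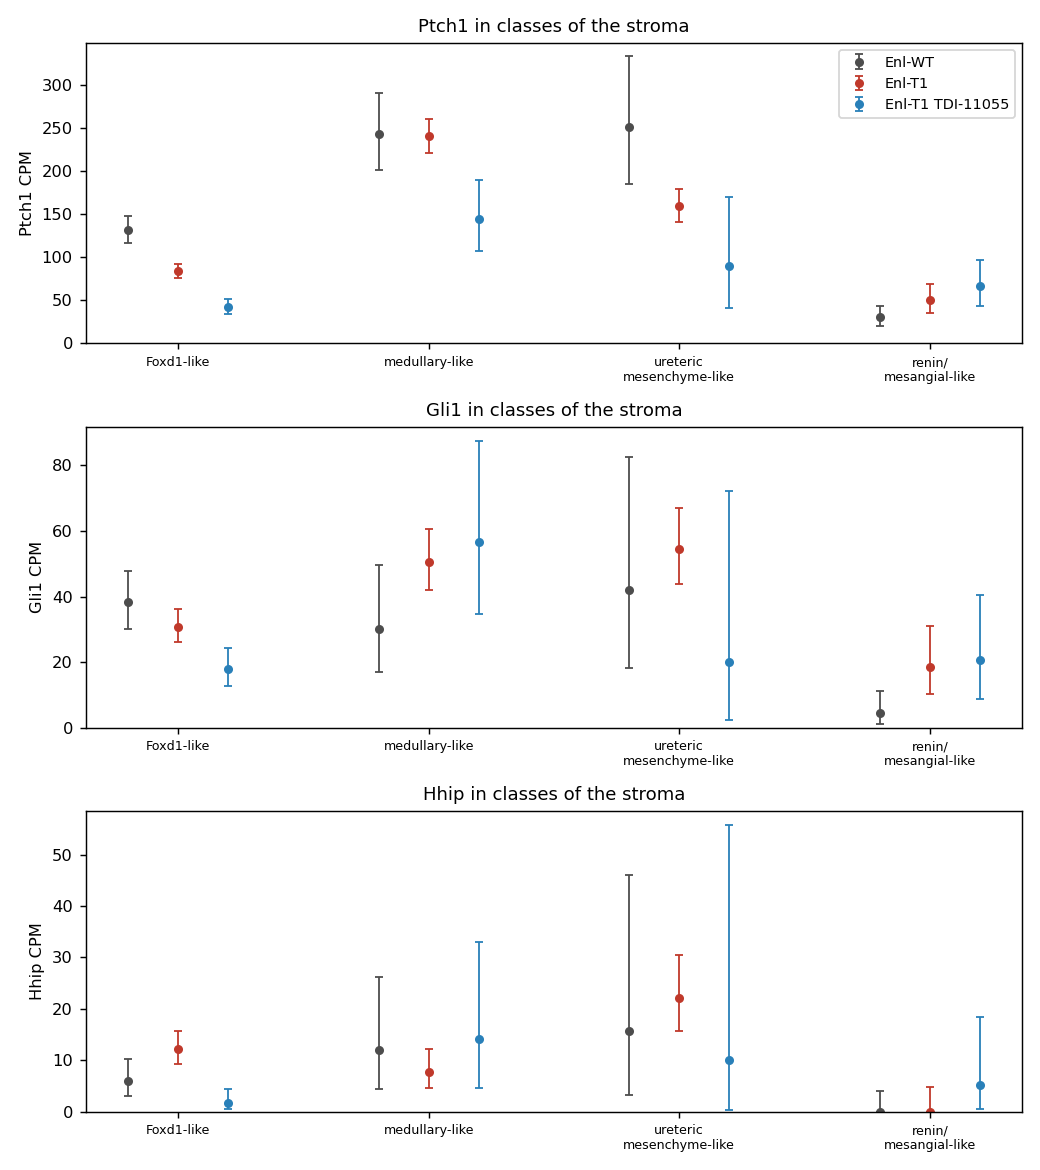
Levels of the target genes Ptch1, Gli1 and Hhip (CPM, with exact 95% Poisson intervals) in the named stromal classes, with 1 point per library. In Foxd1-like cells Ptch1 steps down from 131.9 to 83.7 to 42.1, whereas Hhip is at 5.88, 12.2 and 1.74.

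Taken as a sum, the 3 targets had 664, 1957 and 294 UMIs in the stroma. The relative ratio of the sum was 1.34 (1.23 to 1.47) for Enl-T1 over Enl-WT and 0.469 (0.414 to 0.531) with TDI-11055 over Enl-T1 alone. The share of stromal cells with a UMI of any of the 3 was 44.0%, 59.4% and 42.4% before thinning, at median depths of 4037, 6924 and 13314 UMIs. At 2000 UMIs per cell it was 26.6% (23.7 to 29.7%), 27.2% (24.9 to 29.6%) and 13.3% (9.52 to 18.0%). The first 2 libraries differed by 0.575 percentage points (-3.31 to 4.39), so the difference in the unthinned shares was not seen at equal depth. The Enl-T1 TDI-11055 share lay below both. Endothelial cells had 9.35%, 3.89% and 4.31%, so Enl-T1 TDI-11055 stroma remained above the endothelial share of its own library in value, with overlapping intervals (1.41 to 9.77% in the endothelium).

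The ureteric epithelium showed a different set of members in the comparison of Enl-T1 with Enl-WT. Of 6 that passed the filter, Shh was called higher and Smo, Ptch1, Gli2 and Gli3 lower, with Boc within the call and a median log2 ratio of -0.65. Lower calls took 9.94% of all 10457 genes tested in this lineage and higher calls 13.0%. Smo fell from 103.6 to 50.3 CPM (relative ratio 0.598, 0.545 to 0.656) and Gli3 from 43.6 to 20.6 (0.583, 0.505 to 0.673). Gli2, which passed the filter only through Enl-WT, was at 8.58 and 4.27 (0.613, 0.441 to 0.848). Ptch1, just past the call, was at 87.2 and 47.1 (0.666, 0.604 to 0.733). These calls depended on which cells were counted. In male cells alone the log2 ratios were -0.51 for Smo, -0.22 for Ptch1, -0.04 for Gli2 and -0.36 for Gli3, none past the call, and with clusters weighted equally those of Ptch1, Gli2 and Gli3 were -0.27, -0.34 and -0.40.

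Gli3, the main repressor of the pathway, and Gli2 were highest in tip-like cells among the named classes of the epithelium. Gli3 had 65.8 (59.0 to 73.3), 35.5 (30.5 to 41.0) and 41.0 (37.3 to 45.0) CPM in tip-like cells against 7.48, 2.22 and 10.1 in medullary collecting duct-like cells. Gli2 had 13.2 (10.3 to 16.8), 10.2 (7.65 to 13.4) and 5.46 (4.14 to 7.05) in tip-like cells and 0 UMIs in urothelium-like cells of all 3 libraries. Shh had the opposite order between tip-like and medullary collecting duct-like cells. Among tip-like cells the relative ratio of Enl-T1 to Enl-WT was 0.652 (0.542 to 0.782) for Gli3, past the call, and 0.959 (0.835 to 1.10) for Ptch1, within it. In cortical trunk-like cells Ptch1 had 0.515 (0.420 to 0.628) and Gli3 0.949 (0.660 to 1.36).

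After TDI-11055 only Shh was called in the epithelium, lower, where lower calls took 10.2% of genes, higher calls 7.29% and either direction 17.5%. Gli3 came to 31.2 CPM, a relative ratio of 1.497 (1.30 to 1.72) to Enl-T1 just within the call, and Smo to 61.3 (1.21, 1.10 to 1.32). In tip-like cells, by contrast, Ptch1 had 72.3 in Enl-T1 and 37.3 after TDI-11055 (0.523, 0.453 to 0.604), Gli1 6.17 and 2.45 (0.402, 0.230 to 0.697) and Gli2 10.2 and 5.46 (0.542, 0.367 to 0.802). Shh was also called lower in this class. In Enl-T1 compared with Enl-WT, tip-like Shh was called higher while tip-like Ptch1 stayed within the call. A link between Shh and these genes was not tested.

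In the nephron lineage 6 members passed the filter. Gli1 and Hhip were called higher in Enl-T1 compared with Enl-WT, where higher calls took 14.9% of 10433 genes and calls in either direction 31.8%. Both were under 5 CPM in Enl-WT and in Enl-T1 TDI-11055 and passed the filter only through Enl-T1. Their calls in both comparisons are therefore tied to the filter. Hhip had the largest ratio of the members that passed the filter in a lineage. It was at 0.796 (0.397 to 1.42) CPM in Enl-WT, 14.4 (12.5 to 16.5) in Enl-T1 and 1.52 (1.02 to 2.19) in Enl-T1 TDI-11055, from 11, 207 and 29 UMIs. The relative ratio was 23.96 (13.1 to 48.8) for Enl-T1 over Enl-WT and 0.106 (0.0690 to 0.156) with TDI-11055 over Enl-T1 alone. Its log2 ratio stayed between 2.29 and 4.90 in the first comparison and between -4.06 and -1.27 in the second over 11 alternatives. Gli1 was at 3.76, 9.32 and 4.73, relative ratios of 3.28 (2.37 to 4.61) and 0.506, but its log2 ratios were 0.03 and -0.05 when cells were assigned by markers alone.

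In Enl-T1 most of the nephron's Hhip, 145 of 207 UMIs, sat in a single unnamed cluster, led by Sst, Akap12 and Meg3, whereas it held 0 of 11 in Enl-WT and 10 of 29 in Enl-T1 TDI-11055. It held 42 cells of Enl-WT (1.90% of the lineage), 231 of Enl-T1 (17.7%) and 17 of Enl-T1 TDI-11055 (1.27%). The level in Enl-T1 was 73.7 (62.2 to 86.7) CPM and that after TDI-11055 39.0 (18.7 to 71.8). Enl-WT had none, which allows up to 14.7, and the exact lower limit of the CPM ratio of Enl-T1 to Enl-WT was 4.96. This ratio may not compare like cells, since the genes of the cluster differed between the libraries. Sst was at 0, 150.0 and 0 CPM in it, Akap12 at 2029.6, 261.3 and 308.4, and Meg3 at 533.3, 417.9 and 687.0. Foxd1 was at 250.7, 10.2 and 19.5. At 2000 UMIs per cell 23 of 228 Enl-T1 cells had a Hhip UMI (10.1%, 6.50 to 14.8%), 0 of 39 in Enl-WT and 1 of 17 in Enl-T1 TDI-11055. The cluster also had Ptch1 at 135.3 (93.7 to 189.1), 183.0 (164.6 to 202.9) and 124.9 (85.4 to 176.3), above the NP1-like cells of Enl-T1 and Enl-T1 TDI-11055, and Gli1 at 22.9 (16.7 to 30.6) in Enl-T1 from 45 UMIs. Its lineage is not settled by markers. The nephron marker list summed to 736.2, 168.8 and 359.1 CPM in it and the stroma list to 1098.4, 1079.8 and 811.9. Single markers went both ways. Pdgfra, a stroma marker, was at 15.9, 1.53 and 0 against 268.2, 172.1 and 155.3 in Foxd1-like stroma. Col1a1, another, was at 147.2, 84.9 and 54.65 against 5.29, 10.1 and 2.63 in NP1-like cells. Among nephron markers Six2 was at 15.9, 12.2 and 31.2 against 166.8, 78.1 and 166.8 in NP1-like cells. Pax8 was at 175.1, 46.8 and 97.6 against 34.5, 45.75 and 46.1.

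NP1-like cells, named after the self-renewing nephron progenitors, showed the Hhip difference outside that cluster. The class joined clusters with and without NP1 markers among their 10 leading genes. Six2 was at 166.8, 78.1 and 166.8 CPM in it, Crym at 234.6, 44.8 and 173.0 and Eya1 at 185.0, 120.9 and 146.7. The nephron marker list summed to 992.5, 396.8 and 750.6, and the stroma list to 935.5, 855.7 and 791.6. Hhip was at 1.27 (0.466 to 2.76), 5.89 (4.44 to 7.67) and 1.48 (0.875 to 2.33) CPM, from 6, 55 and 18 UMIs, and the Enl-T1 interval lay above the other two. The relative ratios were 5.86 (2.53 to 16.7) and 0.250 (0.138 to 0.432). Only 0.120%, 0.783% and 0.408% of thinned NP1-like cells had a Hhip UMI, with overlapping intervals. Gli1 was within the call there, at 8.04 (5.69 to 11.0), 8.25 (6.51 to 10.3) and 6.65 (5.28 to 8.26) with a relative ratio of 1.29 (0.867 to 1.96) to Enl-WT, and Ptch1 was at 113.9 (104.5 to 123.9), 75.4 (70.0 to 81.2) and 48.3 (44.4 to 52.3). No single cluster held most NP1-like cells in any library, and the largest cluster was a different one in each of the 3.

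**Figure D5:**
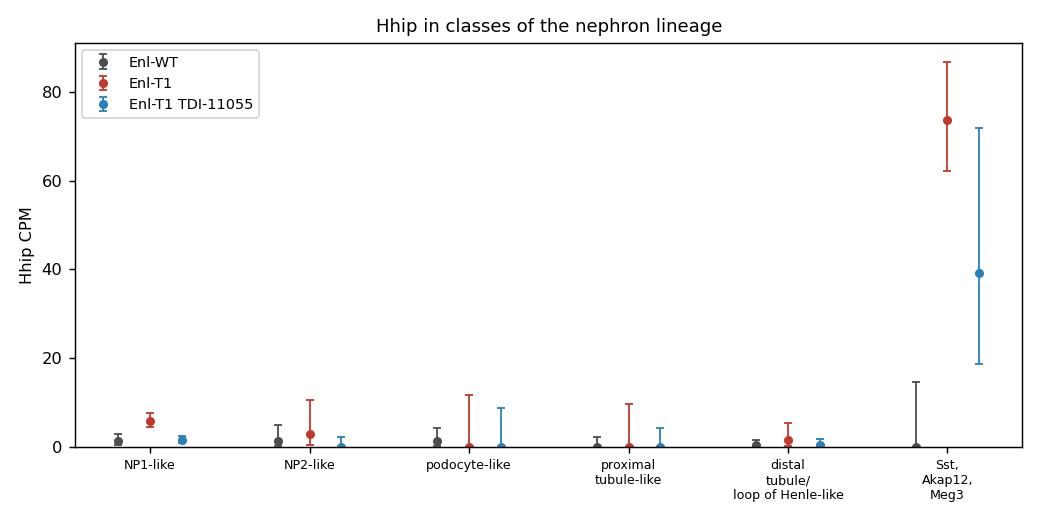
Hhip level (CPM, with exact 95% Poisson intervals) in classes of the nephron lineage, with 1 point per library. The cluster led by Sst, Akap12 and Meg3 is at 73.7 in Enl-T1 and 39.0 after TDI-11055, and NP1-like cells are at 1.27, 5.89 and 1.48.

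Against Enl-T1, 5 of the 6 members were called lower in the Enl-T1 TDI-11055 nephron, Ptch1, Gli1, Gli3, Hhip and Boc, where 7.65% of genes were called lower, 7.26% higher and 14.9% in either direction. Of these, Gli1 and Hhip had passed the filter only through Enl-T1. Ptch1 was at 88.9 in Enl-T1 and 46.2 after TDI-11055 (relative ratio 0.518, 0.475 to 0.565), Gli3 at 42.6 and 26.3 (0.616, 0.546 to 0.694) and Boc at 8.90 and 5.05 (0.565). With cells assigned by markers alone the log2 ratios of Ptch1, Gli1 and Boc were -0.50, -0.05 and -0.53, short of the call, and that of Gli3 was -0.55 with no upper limit on genes. NP2-like cells, the committed progenitors, had Gli3 at 80.9 (67.2 to 96.6), 66.2 (48.3 to 88.5) and 18.4 (12.5 to 26.1), the last below the other two.

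In the stroma neither Smo nor Boc was called in either comparison. Boc was highest, among the named stromal classes, in Foxd1-like cells, at 64.2 (53.7 to 76.2), 43.4 (37.7 to 49.7) and 34.7 (27.5 to 43.2), and was at 10.1 (3.26 to 23.5), 18.5 (13.4 to 24.9) and 14.2 (4.60 to 33.0) in medullary-like cells. Its order between these classes was the reverse of that of Ptch1. In the endothelium 4 members passed the filter and only Gli3 was called in Enl-T1 over Enl-WT, lower, at 39.7 and 14.1 CPM (0.439), where 24.9% of genes were called. None was called in Enl-T1 TDI-11055 over Enl-T1 by the fold rule that calls 27.8% of genes there.

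The other genes of the pathway were read from 6 lists of 44 genes. Of 7 mesenchymal genes known to respond to Hedgehog signal, 5 passed the filter in the stroma, of which 4 were called higher in Enl-T1 compared with Enl-WT and 1 lower, with a median log2 ratio of 1.07 against 0 over all genes by construction. Of all genes tested in the stroma 14.3% were called higher and 12.6% lower. Osr1, a transcription factor of early kidney mesenchyme, was at 4.65, 20.2 and 8.33 CPM, Tshz3, needed for ureteric smooth muscle, at 58.5, 106.1 and 28.7, Bmp4, a signal of the ureteric mesenchyme, at 29.1, 49.8 and 41.3, and Foxl1, a mesenchymal forkhead factor, at 9.29, 15.0 and 10.0. The relative ratios to Enl-WT were 5.35, 2.23, 2.11 and 1.99. The called-lower gene was Myocd, a driver of smooth muscle genes, at 22.0, 5.52 and 2.01 (0.309). After TDI-11055 4 of the 5 were lower than in Enl-T1, Tshz3 (0.267), Myocd (0.359), Osr1 (0.406) and Foxl1 (0.659), where lower calls took 13.2% of genes. Over 11 alternatives the 4 higher calls of Enl-T1 over Enl-WT were each lost at least once, with lowest log2 ratios of 0.28 for Osr1, 0.43 for Tshz3, 0.35 for Bmp4 and 0.33 for Foxl1. Of the lower values after TDI-11055, that of Tshz3 stayed past the call, at -1.05 or below. Osr1 changed sign under 2 of the 11, reaching 0.86, Foxl1 under 1, reaching 0.29, and Myocd came to -0.21. These alternatives were run for the members and for this list, not for the lists that follow.

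Among co-receptors in the stroma Gas1 was higher in Enl-T1, at 99.5, 148.1 and 127.5 (1.83), and Cdon lower, at 13.9, 7.42 and 3.44 (0.655, then 0.457 after TDI-11055). Of all genes tested there 14.3% were called higher and 12.6% lower in Enl-T1, and 13.2% lower after TDI-11055. In the epithelium Lrp2, a large endocytic receptor, was lower in Enl-T1 (0.293), and Gpc3, a cell surface proteoglycan, was higher after TDI-11055 (1.70). Lrp2 was also lower in the stroma, at 6.60, 0.0905 and 0 CPM, where it did not pass the filter. The nephron marker list summed to 505.4, 281.5 and 362.3 in the epithelium, and the part of such RNA in its Lrp2 counts was not tested. Of 12 genes of the relay between SMO and the GLI factors that passed the filter in the stroma, none was called higher in Enl-T1 and 4 lower, where lower calls took 12.6% of genes, Evc (0.483), Kif7 (0.506), Evc2 (0.553) and Gpr161 (0.646). After TDI-11055 Sufu (0.572, 0.368 to 0.860), a brake on GLI, and Kif7 (0.563, 0.243 to 1.155) were called lower than in Enl-T1, where lower calls took 13.2% of genes. The Kif7 interval includes no change. Kif7 was at 11.0, 4.53 and 2.58 CPM and passed the filter only through Enl-WT. In the ureteric epithelium the same list had 2 of 10 lower in Enl-T1, Evc2 (0.365) and Gpr161 (0.613), where lower calls took 9.94% of genes and calls in either direction 22.9%, and none called after TDI-11055. The 9 genes of transport in the cilium, where the pathway is relayed, had no call in the stroma of Enl-T1 over Enl-WT and 2 lower in the epithelium, Dync2h1 (0.534) and Ift140 (0.544). In the stroma after TDI-11055, set against Enl-T1, 3 of them were lower, Dync2h1 (0.599), Arl13b (0.617) and Tulp3 (0.629), where lower calls took 13.2% of genes. Scube3, which helps ligand to leave cells, was lower in Enl-T1 in the ureteric epithelium, at 96.1, 45.1 and 36.0 (0.578), and in the stroma, at 14.7, 6.25 and 3.73 (0.524), where Scube1 of the same family was higher (1.61). The shares of all genes called in these comparisons are those given for the co-receptors. Of 4 kidney genes linked to GLI3 repressor, 3 passed the filter in the epithelium. Ccnd1, a cyclin, at 260.5, 128.2 and 285.9, and Mycn, at 23.4, 10.7 and 24.4, were lower in Enl-T1 compared with Enl-WT (0.607 and 0.562). Both were higher after TDI-11055 than in Enl-T1 (2.21 and 2.26), and Pax2 was within the call in both comparisons. Of all genes tested in the epithelium 9.94% were called lower in the first comparison and 7.29% higher in the second. The part of the makeup of the epithelium in these values was not tested. In the stroma all 4 passed, and Sall1, a regulator of kidney outgrowth, was lower in Enl-T1 (0.661) and higher after TDI-11055 (2.24), when Mycn was also higher (3.13) and Pax2 lower (0.521). Lower calls took 12.6% of genes in the first comparison there. In the second, higher calls took 10.2% and lower calls 13.2%.

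The genes whose pattern was most like that of a member were found over 18 points, 6 classes with at least 50 cells in each of the 3 libraries, among 12952 genes. Points from 1 library share its depth and preparation, and the correlation is given as a description. Shh was closest to Cldn23 (Pearson's r = 0.965), a tight junction protein, Elf5 (0.959), Rnf186 (0.955), Avpr2 (0.954), the vasopressin receptor of the collecting duct, and Aqp4 (0.952), a water channel. Gli1 was closest to P4ha1 (0.924), Ptprd (0.915) and Sdc3 (0.902), Ptch1 to Wnk1 (0.895), Tasor2 (0.879) and Uba6 (0.878), and Hhip to B230219D22Rik (0.903), Milr1 (0.900) and Gm49179 (0.895).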

How the data were processed

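Droplet single-cell RNA sequencing was performed on 3 libraries, 1 per group. The authors made the deposited matrices of raw UMI counts for 32285 genes with Cell Ranger 6.1.2 on mm10, with no later filter on cells. Barcodes with 1000 to 6000 genes and at most 10% mitochondrial UMIs were kept, as in the study's methods. Counts were log-normalised, integrated with anchors and clustered with Seurat 5.3.0 (R 4.3.3), on 30 components at a resolution of 0.5, then within each lineage on 20 components at 0.8, leaving out 213 genes, among them 53 Hedgehog genes. Clusters were named "-like" from marker lists (most markers among the 10 genes of highest fold, at least 3 detected), by a rule set after the clusters were seen. Other class names could move the class values. UMIs were summed per class and library. Levels are CPM of that sum, ratios have exact conditional binomial intervals and shares exact Clopper-Pearson intervals (scipy 1.17.1), all at 95%, and none covers embryos or preparations. All 9 members were named, and other pathway genes only past 1.5-fold at 5 or more CPM, up to 4 a list, or by the 5 highest correlations of log2 levels. Doublets were left in, with Scrublet (scanpy 1.11.5) as an alternative. It marked only 0.18% in Enl-T1 TDI-11055, where the 89 highest scores were used instead. Members, lists and classes were chosen with earlier results of these data known. Promoter sequences are from RefSeq (GRCm38.p6). A stromal cluster and a marker gene are not reported here.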

Additional observations from a re-analysis of the deposited data

How the results depend on the processing

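No paired analysis was possible because each group was 1 library. No result was given a test, so settings are compared by value, and none of the 8 results changed sign apart from a share. Shh in the ureteric epithelium, Enl-T1 over Enl-WT, was 0.76 on the log2 scale and came to 0.46 on uncentred values, 0.40 with clusters weighted equally and 1.13 with no upper limit on genes per cell. With TDI-11055 over Enl-T1 alone it was -0.70, and came to -0.08 with clusters weighted equally and -0.94 in male cells. The sum of Ptch1, Gli1 and Hhip in the stroma, 0.42 for Enl-T1 over Enl-WT, was 0.13 uncentred, 0.08 with clusters weighted equally and 0.62 in male cells. With TDI-11055 over Enl-T1 alone it was -1.09, and came to -1.31 as a mean per cell, -0.76 with clusters weighted equally and -1.50 in male cells. Of the 2 members called in the stroma in Enl-T1 over Enl-WT, 0 passed 2-fold, and on uncentred values the 2 called were Smo and Gli3, both lower, in place of Gli1 and Hhip. The share of epithelial cells with a Shh UMI, 1.17 points higher in Enl-T1 compared with Enl-WT, was 13.1 points higher without thinning and -0.298 points in male cells, and the share of stroma with a target UMI, 0.575 points, was 15.47 without thinning and 5.48 in male cells. The causes were not tested. Leaving out clusters led by genes of another lineage or of low UMI counts was chosen after seeing the data, and gave 0.91 and -0.59 for Shh and 0.42 and -1.08 for the sum. Equal weights used the 12 of 13 epithelial and 9 of 11 stromal clusters with at least 10 cells in each library. Depth limits Ihh, Hhip and every class of the Enl-T1 TDI-11055 stroma other than Foxd1-like.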
